A study of Homo sapiens with 4 samples.

Results

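The loci described here are the long intergenic non-coding RNA genes that carry a LINC symbol and stand apart from protein-coding genes. They were chosen from the RefSeq annotation of GRCh38 as lncRNA genes on chromosomes 1 to 22, X and Y whose symbol starts with LINC and a number and whose boundaries lie at least 5 kb from any protein-coding gene. The rule took 1971 of 59679 annotated genes, and 333 further LINC genes lay nearer to a protein-coding gene. The loci had a median length of 15.025 kb and reached 765 kb, and 630 of them overlap another annotated gene. A locus was counted as having a peak when a peak overlapped the gene or the 1 kb beyond either boundary. The peaks are of CHAF1A, which is the largest of the CAF-1 subunits and binds histones, mapped by CUT&Tag, in which an antibody brings a transposase to its target on chromatin. The cells were RBE, an established human line of intrahepatic cholangiocarcinoma, a cancer of the bile ducts within the liver. They were transfected by Lipofectamine with an siRNA against CHAF1A (2 samples) or a control siRNA (2 samples) and harvested at 48 hours.

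LINC symbols are given to intergenic lncRNA genes that have no name from a function. Such RNAs are usually spliced, made at low levels and often restricted to 1 or a few tissues. Many of their promoters lie in sequence that came from transposable elements. CAF-1 deposits new histones behind the replication fork and is known, from work in mouse stem cells, to help silence endogenous retroviruses.

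The promoters of 6 loci show how different the starts of these genes are. Each is the RefSeq window from 250 bases before to 50 bases after the annotated start in GRCh38.p14, and each was overlapped by a peak in at least 1 list. Capitals mark the GC box (GGGCGG), the CCAAT box (CCAAT) and the AP-1 motif (TGAGTCA), searched on both strands, and none of the motifs searched contains another. LINC02848 (chr7:63900590-63900889, plus strand) and LINC00673 (chr17:72592755-72593054, minus strand) carry GC boxes and many CpG pairs and had a peak in both lists. LINC01186 (chrX:46327625-46327924, minus strand) also had a peak in both lists but holds none of the motifs and only 3 CpG pairs. The window of LINC01970 (chr17:82292765-82293064, minus strand) was overlapped by a peak in the CHAF1A siRNA list only. Those of LINC02703 (chr11:115919386-115919685, plus strand) and LINC00460 (chr13:106376314-106376613, plus strand) were overlapped in the control siRNA list only, and both hold an AP-1 motif. At LINC00460 the control peak began at 106376579, so it covered only the end of the window, past its AP-1 motifs. A CHAF1A siRNA peak, which began at 106376704 outside the window, overlapped that control peak.
LINC02848: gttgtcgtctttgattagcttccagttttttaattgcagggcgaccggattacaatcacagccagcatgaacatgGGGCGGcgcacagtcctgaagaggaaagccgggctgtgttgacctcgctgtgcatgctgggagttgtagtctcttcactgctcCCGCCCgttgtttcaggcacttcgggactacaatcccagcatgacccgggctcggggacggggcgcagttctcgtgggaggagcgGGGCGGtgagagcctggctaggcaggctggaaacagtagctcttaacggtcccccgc
LINC00673: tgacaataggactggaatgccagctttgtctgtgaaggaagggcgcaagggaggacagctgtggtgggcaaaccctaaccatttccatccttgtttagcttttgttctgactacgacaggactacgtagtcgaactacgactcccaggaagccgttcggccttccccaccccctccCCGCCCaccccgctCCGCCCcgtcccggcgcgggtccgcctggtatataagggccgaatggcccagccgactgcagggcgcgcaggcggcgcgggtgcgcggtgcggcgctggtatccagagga
LINC01186: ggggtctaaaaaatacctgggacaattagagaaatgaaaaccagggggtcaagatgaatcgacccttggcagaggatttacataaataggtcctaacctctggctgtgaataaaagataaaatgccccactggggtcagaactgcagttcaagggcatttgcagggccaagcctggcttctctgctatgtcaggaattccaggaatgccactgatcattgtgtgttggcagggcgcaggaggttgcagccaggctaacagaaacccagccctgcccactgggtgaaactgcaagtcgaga
LINC01970: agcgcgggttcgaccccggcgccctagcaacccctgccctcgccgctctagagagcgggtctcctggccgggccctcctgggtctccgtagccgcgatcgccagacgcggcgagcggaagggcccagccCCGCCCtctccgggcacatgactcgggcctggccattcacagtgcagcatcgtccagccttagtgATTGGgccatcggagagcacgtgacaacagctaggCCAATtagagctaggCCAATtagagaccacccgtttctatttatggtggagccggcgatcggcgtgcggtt
LINC02703: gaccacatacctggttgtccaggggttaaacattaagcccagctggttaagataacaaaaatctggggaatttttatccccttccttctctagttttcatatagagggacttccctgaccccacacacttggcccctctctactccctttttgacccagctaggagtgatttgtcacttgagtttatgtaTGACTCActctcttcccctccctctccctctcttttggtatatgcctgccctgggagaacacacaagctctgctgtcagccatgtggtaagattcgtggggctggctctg
LINC00460: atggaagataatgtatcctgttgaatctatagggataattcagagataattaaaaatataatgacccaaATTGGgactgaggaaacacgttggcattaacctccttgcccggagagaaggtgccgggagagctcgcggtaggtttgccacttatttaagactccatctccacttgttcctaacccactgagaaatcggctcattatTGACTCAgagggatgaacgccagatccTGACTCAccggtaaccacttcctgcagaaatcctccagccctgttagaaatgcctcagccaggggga

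The CHAF1A siRNA list held 97653 peaks on these chromosomes and the control siRNA list 76313. Each list stands for its whole group and does not keep the 2 samples apart, so differences between the lists cannot be set against replicate error and carry no p-value. Read totals are not used here. Solving the fold and p of each peak gave its background, whose most frequent value was 8.49 reads in the CHAF1A siRNA list and 6.34 in the control siRNA list, a ratio of 1.34. No library made without the CHAF1A antibody is used here, so signal that the transposase gives at any open chromatin cannot be told apart from that of CHAF1A. The siRNA and the antibody share the target CHAF1A, and the CHAF1A siRNA list held more peaks. No measure of CHAF1A RNA or protein amount is used here, so the extent of the knockdown was not tested. The peaks do not check the identity of the cell line either.

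Of the 1971 intergenic LINC loci, 990 (50.2%) had a peak in at least 1 list. In the CHAF1A siRNA list 871 of 1971 loci had one (44.2%, 95% exact interval 42.0 to 46.4), and in the control siRNA list 735 (37.3%, 35.2 to 39.5). Over all 59679 annotated genes these shares were 48.1% in the CHAF1A siRNA list and 44.4% in the control siRNA list. A peak in both lists was found at 616 loci (31.3%, 29.2 to 33.4), beside 40.3% of all genes. A further 255 loci (12.9%, 11.5 to 14.5) had a peak in the CHAF1A siRNA list only, beside 7.85% of all genes. In the control siRNA list only there were 119 (6.04%, 5.03 to 7.18), beside 4.11% of all genes. These shares were not particular to the loci. Intergenic lncRNA genes with other symbols had 10.2% in the CHAF1A siRNA list only and 6.15% in the control siRNA list only. LINC genes nearer than 5 kb had 12.9% in the CHAF1A siRNA list only and 6.31% in the control siRNA list only. The remaining 981 intergenic LINC loci had none. Of the 616 loci with a peak in both lists, 515 had at least 1 pair of overlapping peaks, and in 101 the peaks of the lists lay at different places. Most loci held few peaks: 491 had a single one in the CHAF1A siRNA list and 423 in the control siRNA list, while 66 had 5 or more in the CHAF1A siRNA list and 38 in the control siRNA list.

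The order of the lists turned with the threshold. With only peaks of −log10 q of at least 10 in each list, 423 loci had a peak in the CHAF1A siRNA list and 466 in the control siRNA list. Loci of a single list then numbered 94 in the CHAF1A siRNA list and 137 in the control siRNA list. With equal numbers of peaks per list, 750 loci had a peak in the CHAF1A siRNA list and 735 in the control siRNA list, and 187 were found only in the CHAF1A siRNA list and 172 only in the control siRNA list.

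Longer loci had a peak more often. Among LINC loci under 5 kb, 147 of 456 had a peak in the CHAF1A siRNA list (32.2%, 28.0 to 36.7) and 129 in the control siRNA list (28.3%, 24.2 to 32.7). Among those of 100 kb or more, 131 of 205 had one in the CHAF1A siRNA list (63.9%, 56.9 to 70.5) and 124 in the control siRNA list (60.5%, 53.4 to 67.2). At matched length the LINC loci stood under protein-coding genes, and up to 100 kb above the 7218 other intergenic lncRNA genes. Of those other genes under 5 kb, 22.1% (20.4 to 23.8) had a peak in the CHAF1A siRNA list and 19.2% (17.6 to 20.9) in the control siRNA list. At 5 to 20 kb the LINC loci had 39.3% (35.7 to 43.0) and the other intergenic lncRNA genes 32.6% (30.8 to 34.3) in the CHAF1A siRNA list, and at 20 to 50 kb 49.0% (43.9 to 54.1) and 39.6% (36.9 to 42.3). In the control siRNA list the LINC loci had 32.3% (28.9 to 35.9) and the others 28.3% (26.7 to 30.02) at 5 to 20 kb, and 38.4% (33.5 to 43.4) and 34.5% (31.9 to 37.2) at 20 to 50 kb, where the intervals overlap. At 50 to 100 kb the LINC loci had 57.7% and the others 53.7% in the CHAF1A siRNA list. In the control siRNA list they had 48.2% and 46.6%, and the intervals overlap in both lists. At 100 kb or more the other intergenic lncRNA genes had 65.2% in the CHAF1A siRNA list and 63.7% in the control siRNA list. Protein-coding genes under 5 kb had 53.7% in the CHAF1A siRNA list and 47.7% in the control siRNA list. Per Mb of locus, LINC loci held 20.6 peaks in the CHAF1A siRNA list and 16.2 in the control siRNA list. The other intergenic lncRNA genes stood above them on this measure, with 22.9 in the CHAF1A siRNA list and 18.2 in the control siRNA list. Protein-coding genes held 43.3 in the CHAF1A siRNA list and 34.1 in the control siRNA list.

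**Figure D1:**
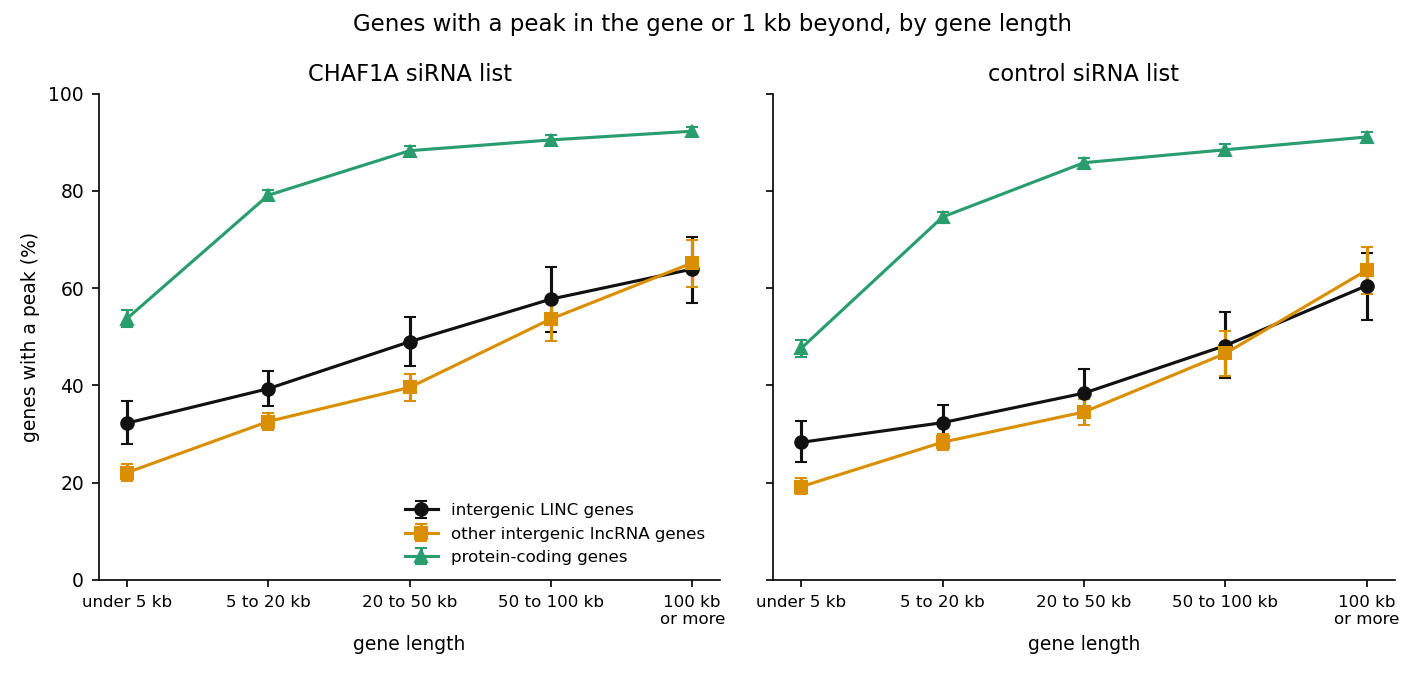
Share of genes with a peak in the gene or 1 kb beyond (vertical axis, percent) by gene length (horizontal axis), in the CHAF1A siRNA list (left) and the control siRNA list (right). Points are shares and bars 95% exact binomial intervals; the LINC loci go from 32.2% to 63.9% on the left and from 28.3% to 60.5% on the right, under protein-coding genes at every length.

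Loci nearer to protein-coding genes also had a peak more often, although none lies within 5 kb of one. Of the 351 loci at 5 to 20 kb, 56.7% (51.3 to 61.9) had a peak in the CHAF1A siRNA list and 49.0% (43.7 to 54.4) in the control siRNA list. Of the 202 loci at 500 kb or more, 27.2% (21.2 to 33.9) had one in the CHAF1A siRNA list and 18.3% (13.2 to 24.4) in the control siRNA list. Remote loci are longer, with a median of 24.5 kb against 8.86 kb for the near ones, so length runs against this order. Among loci under 20 kb long the shares at a distance of 5 to 20 kb were 49.0% in the CHAF1A siRNA list and 43.1% in the control siRNA list. At 500 kb or more they were 13.8% in the CHAF1A siRNA list and 9.20% in the control siRNA list.

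The strongest peaks of the group were present in both lists, and several lie where 1 LINC gene meets another annotated gene or a duplicated sequence. LINC02564 lies at the start of chromosome 18 (11560 to 15930). Its only peak began at position 10001, near the chromosome end, outside the gene and inside the lncRNA gene LOC107985185. The peak had 631 overlapping reads at its summit and a fold enrichment of 22.002 in the CHAF1A siRNA list, and 655 reads and 24.5 in the control siRNA list. These are the highest fold enrichments of any LINC locus in either list. How reads were placed this near the chromosome end was not examined, so the height of this peak is uncertain. At LINC00390 on chromosome 13 (44106091 to 44147735) the peak lay inside the gene, 5520 bp past the nearest annotated start, and in the overlapping antisense gene SMIM2-AS1. It had 517 reads and a fold enrichment of 12.0 in the CHAF1A siRNA list, and 493 reads and 15.5 in the control siRNA list.

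A pair of these peaks lay in transcribed pseudogenes of the FAM86 family, whose copies are near-identical and spread over several chromosomes. The peak of LINC02449 (chromosome 12, 8235415 to 8242564) lay past the gene boundary in FAM86FP, with a fold enrichment of 8.64 and 528 reads in the CHAF1A siRNA list against 10.3 and 733 reads in the control siRNA list. The peak of LINC02018 (chromosome 3, 75435308 to 75512177) lay across the gene boundary in FAM86DP, with 8.29 and 311 reads in the CHAF1A siRNA list against 9.34 and 474 reads in the control siRNA list. The sources used here do not say how reads were divided between such copies, so the height of both peaks is uncertain.

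Other strong loci had a peak with no further annotated gene under it. LINC02870 (chromosome 10, 132445189 to 132448306) had its peak past the 3′ boundary, with 495 reads and a fold enrichment of 6.77 in the CHAF1A siRNA list against 625 reads and 8.56 in the control siRNA list. LINC01186 (chromosome X, 46325924 to 46327674) had a peak at each end. The stronger lay past its 3′ boundary, with a fold enrichment of 7.97 in the CHAF1A siRNA list and 9.19 in the control siRNA list. The one over the promoter printed above had 6.15 in the CHAF1A siRNA list and 6.41 in the control siRNA list. At LINC02848 (chromosome 7, 63899898 to 63925202) the strongest peak covered the printed promoter, with 269 reads and a fold enrichment of 11.3 in the CHAF1A siRNA list against 206 reads and 12.6 in the control siRNA list. LINC02021 (chromosome 3, 130111707 to 130120569) had 8.51 and 267 reads in the CHAF1A siRNA list against 9.36 and 366 reads in the control siRNA list. All 8 strongest loci had a lower fold enrichment in the CHAF1A siRNA list, while the reads at the summit were more numerous there at LINC00390, LINC01186 and LINC02848 and fewer at the other 5.

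**Figure D2:**
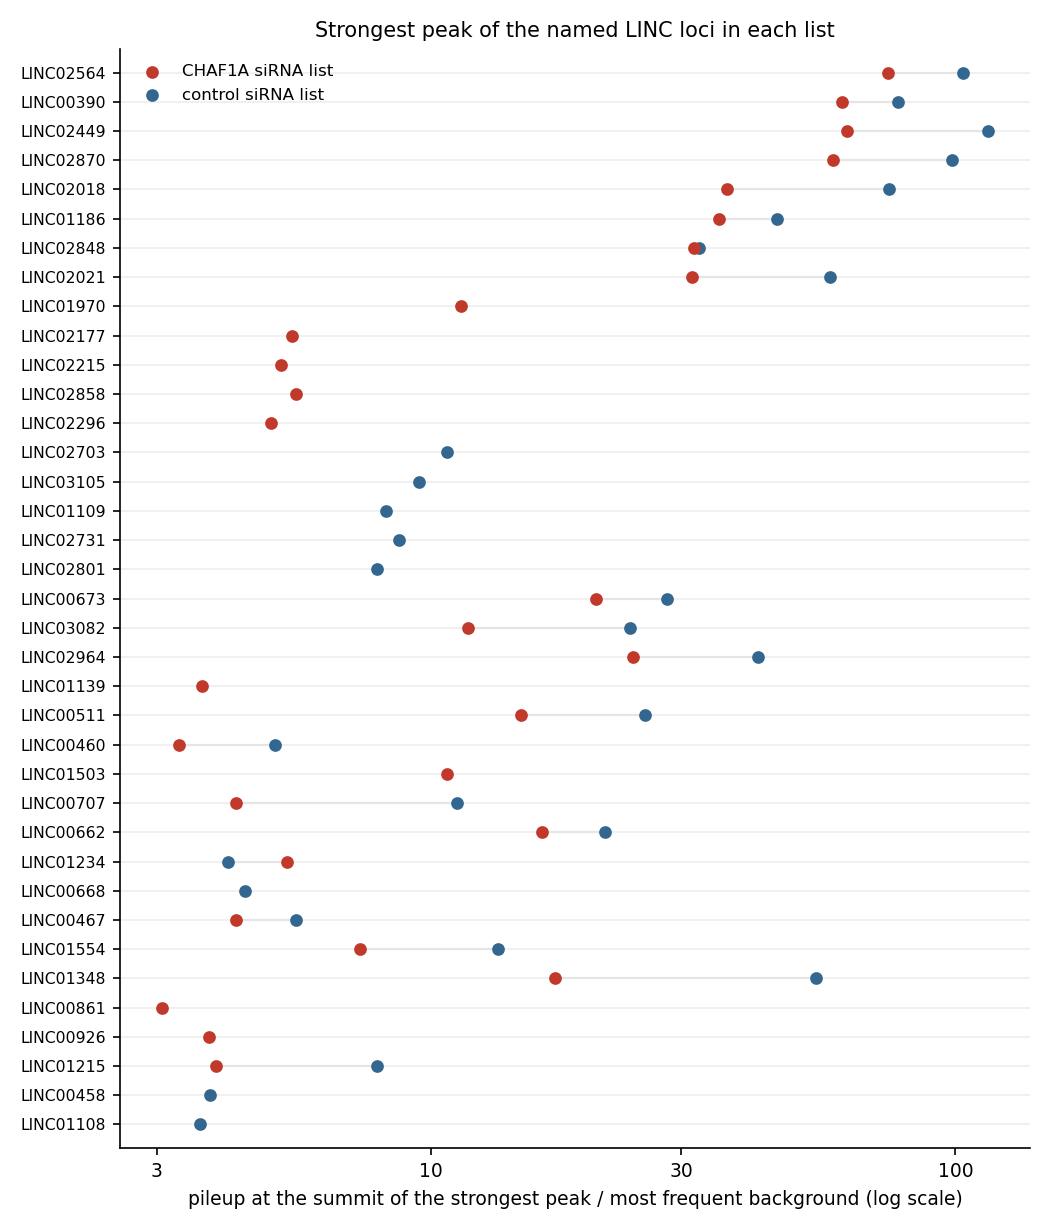
Pileup at the summit of the strongest peak of each named LINC locus, divided by the most frequent background of its list (horizontal axis, log scale), for the CHAF1A siRNA list (red) and the control siRNA list (blue). A locus with 1 point had a peak in 1 list only, and at LINC03082, LINC01234 and LINC01215 the points are different peaks; LINC02564 stands at 74.3 in the CHAF1A siRNA list and 103 in the control siRNA list.

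Loci with a peak in 1 list only had weaker peaks in the median than loci of both lists. The strongest peak of the 255 loci of the CHAF1A siRNA list alone had a median −log10 q of 6.86 and a maximum of 21.8, and 199 of them had a single peak. Those of the 119 loci of the control siRNA list alone had a median of 7.96 and a maximum of 37.3, and 101 had a single peak. At the 616 loci of both lists the medians were 13.0 in the CHAF1A siRNA list and 16.6 in the control siRNA list. A −log10 q of at least 10 was reached at 32 of the 255 loci and at 47 of the 119. Among the 616 it was reached at 391 in the CHAF1A siRNA list and at 419 in the control siRNA list.

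In the CHAF1A siRNA list alone, LINC01970 led with 97 reads and a fold enrichment of 3.45 at its start, 16.3 kb from CSNK1D, over the printed promoter with 3 CCAAT boxes, 1 GC box and 29 CpG pairs. LINC02177 and LINC02215 followed, with fold enrichments of 4.95 and 4.74 at sites inside the genes. LINC02858 had 4.45 just past its 3′ boundary. LINC02296, of 268.82 kb, had 4 peaks, the strongest with 4.53. The last 4 loci had between 42 and 47 reads at the summit.

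In the control siRNA list alone, LINC02703 on chromosome 11 led with 2 peaks. Its stronger peak had 68 reads and a fold enrichment of 7.98, 5666 bp past the start, and the other covered the printed promoter with 53 reads and 6.04. LINC03105 on chromosome 21 had 60 reads and a fold enrichment of 8.31, LINC02731 55 reads and 6.47, and LINC02801 50 reads and 6.93. At LINC01109, with 52 reads and 7.21, the control peak reached past the 1 kb margin and overlapped a peak of the CHAF1A siRNA list there. This happened at 2 of the 119 loci. The fold enrichments of these 5 loci were all higher than those of the 5 named for the CHAF1A siRNA list, in a list with a lower background.

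Some loci carried a row of peaks. LINC00673 on chromosome 17 (72403322 to 72592804), a lncRNA known from pancreatic cancer, had 23 peaks in the CHAF1A siRNA list and 22 in the control siRNA list, of which 16 in each overlapped a peak of the other list. Its peaks had fold enrichments of 2.34 to 5.50 in the CHAF1A siRNA list and 2.37 to 6.56 in the control siRNA list. The strongest, in the gene body far from the start, had 175 reads in the CHAF1A siRNA list and 179 in the control siRNA list. Its promoter peak was weaker, with a fold enrichment of 3.17 and 95 reads in the CHAF1A siRNA list and 3.45 and 81 reads in the control siRNA list. The adjoining LINC00511, an lncRNA often described as tumour-promoting, had 6 peaks in the CHAF1A siRNA list and 5 in the control siRNA list. Its strongest, which also lies in LOC107985005, had 126 reads and a fold enrichment of 6.30 in the CHAF1A siRNA list against 162 reads and 9.61 in the control siRNA list.

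At a pair of long loci the CHAF1A siRNA list held fewer peaks than the control siRNA list, against the direction of the lists as a whole. LINC03082, 19.8 kb from the collagen gene COL4A1 on chromosome 13, had 10 peaks in the CHAF1A siRNA list and 18 in the control siRNA list, and 9 in each were shared. Its strongest control peak (110011781 to 110012521) had 152 reads and a fold enrichment of 8.99, and the CHAF1A siRNA peak at the same site 55 reads and 3.85. LINC02964 on chromosome 8 had 11 peaks in the CHAF1A siRNA list and 16 in the control siRNA list, with 6 shared in each. Its strongest had a fold enrichment of 7.74 in the CHAF1A siRNA list and 8.96 in the control siRNA list.

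Within the loci, peaks gathered at the 5′ end, but most lay elsewhere. For the 1330 loci with an annotated strand, 249 of 1184 peaks of the CHAF1A siRNA list (21.0%, 18.7 to 23.5) had their summit within 1 kb of an annotated start. In the control siRNA list these were 227 of 933 (24.3%, 21.6 to 27.2). Within 1 kb of the 3′ boundary lay 82 (6.93%) in the CHAF1A siRNA list and 62 (6.65%) in the control siRNA list, and elsewhere in the gene 833 (70.4%) in the CHAF1A siRNA list and 626 (67.1%) in the control siRNA list. Peaks at starts were stronger, with a median −log10 q of 10.3 in the CHAF1A siRNA list and 17.1 in the control siRNA list, whereas in the rest of the gene it was 7.41 in the CHAF1A siRNA list and 9.82 in the control siRNA list. They were also shared more often: 173 of 249 (69.5%, 63.3 to 75.1) in the CHAF1A siRNA list and 172 of 227 (75.8%, 69.7 to 81.2) in the control siRNA list, whereas in the rest of the gene the shares were 40.9% in the CHAF1A siRNA list and 55.9% in the control siRNA list.

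**Figure D3:**
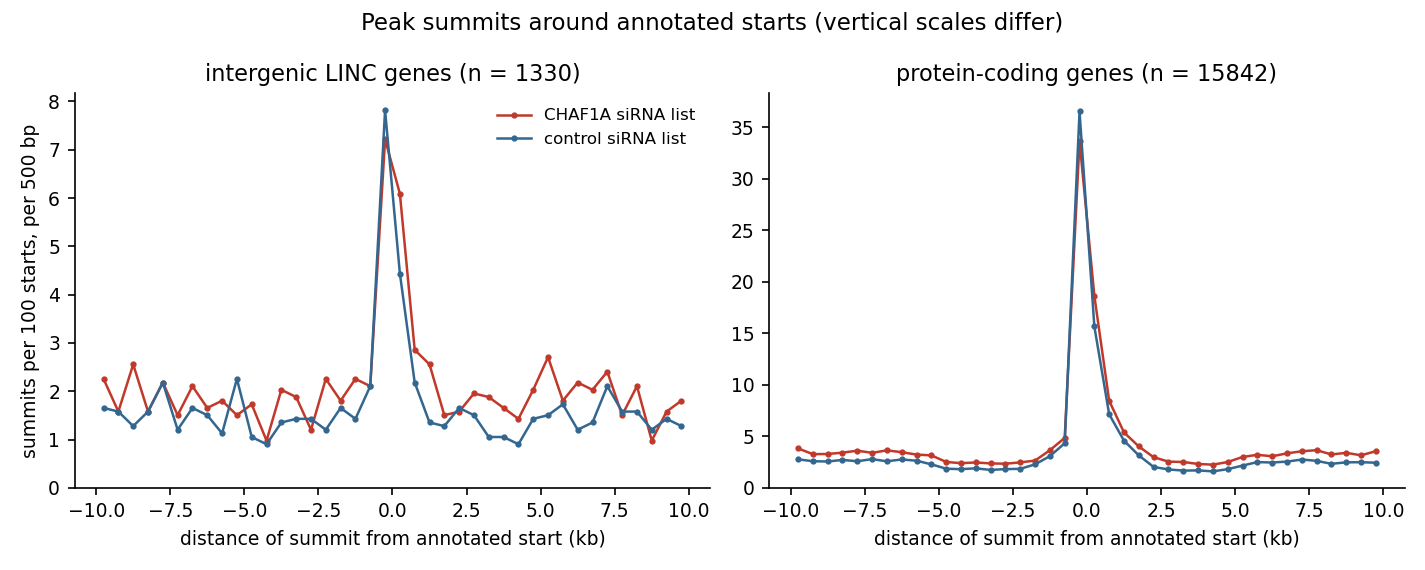
Peak summits per 100 annotated starts in bins of 500 bp (vertical axis) by distance from the most upstream start (horizontal axis, kb, positive into the gene), for 1330 intergenic LINC genes (left) and 15842 protein-coding genes (right), in the CHAF1A siRNA list (red) and the control siRNA list (blue). The bin just before the start is the highest in both panels, at 7.22 summits per 100 LINC starts in the CHAF1A siRNA list and 7.82 in the control siRNA list, and at 33.6 per 100 protein-coding starts in the CHAF1A siRNA list and 36.5 in the control siRNA list.

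The promoter windows of LINC genes were rarely covered. A peak overlapped the window of 149 of the 1330 loci in the CHAF1A siRNA list and of 154 in the control siRNA list, in both lists at 116 of them (8.72%), whereas over all 27303 windows the shares were 38.8% in the CHAF1A siRNA list, 38.1% in the control siRNA list and 34.2% in both. LINC windows are poor in CpG: 173 of 1330 (13.0%) held at least 15 CpG pairs, against 65.3% of protein-coding windows. Within classes of CpG content the LINC windows stood under protein-coding windows in the richer classes. The richest class has no upper bound, so CpG content can still differ within it. Over all windows the median was 4 CpG pairs for LINC genes and 22 for protein-coding genes. Of the 173 LINC windows with 15 or more CpG pairs, each list had a peak over 59 (34.1%, 27.1 to 41.7). These were in part different windows, and 51 had a peak in both lists. Protein-coding windows of this class had one in 68.5% in the CHAF1A siRNA list and 69.3% in the control siRNA list. Among windows with 5 to 14 CpG pairs, 13.5% of LINC windows (10.2 to 17.4) had a peak in the CHAF1A siRNA list. The control siRNA list had the same share, counted separately. Protein-coding windows of this class had one in 31.5% in the CHAF1A siRNA list and 27.8% in the control siRNA list. Among windows with 4 or fewer, LINC windows had a peak in 5.08% (3.66 to 6.86) in the CHAF1A siRNA list and 5.72% (4.20 to 7.58) in the control siRNA list, and protein-coding windows in 9.15% (8.07 to 10.3) in the CHAF1A siRNA list and 6.29% (5.39 to 7.29) in the control siRNA list, where the intervals overlap. Other intergenic lncRNA genes stood near the LINC genes, with 31.7% in the CHAF1A siRNA list and 29.9% in the control siRNA list in the richest class.

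LINC windows with a peak differed in sequence from those without. The median GC content was 59.2% for the 116 windows with a peak in both lists, 54.3% for the 33 of the CHAF1A siRNA list alone, 51.0% for the 38 of the control siRNA list alone and 45.7% for the 1143 with none. A GC box stood in 62 of the 116 (53.4%), against 10.9% of windows with no peak and 44.5% of all promoter windows. The ETS motif CCGGAAG stood in 14.7%, against 3.06% of windows with no peak and 10.6% of all, and the cAMP response element TGACGTCA in 8 of the 116 (6.90%), against 0.525% of windows with no peak and 1.97% of all. The TATA box TATAAA showed the opposite order, with 8.62% against 18.8% of windows with no peak and 12.0% of all. The AP-1 motif stood in 11 of the 38 windows of the control siRNA list alone (28.9%), in 4 of the 33 of the CHAF1A siRNA list alone (12.1%), in 15 of the 116 of both lists (12.9%) and in 80 of the 1143 with none, against 4.90% of all promoter windows. The CCAAT box was spread evenly, in 31.9% of windows of both lists and 36.9% of those with none. GC boxes, CpG pairs and GC content move together, and their shares were not separated.

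At the level of single peaks, 1677 peaks of the CHAF1A siRNA list (1.72% of the list) and 1321 of the control siRNA list (1.73%) touched a LINC locus. Their median fold enrichment was 3.27 in the CHAF1A siRNA list and 3.97 in the control siRNA list, with median widths of 330 bp in the CHAF1A siRNA list and 332 bp in the control siRNA list. The other list held an overlapping peak for 741 of the CHAF1A siRNA peaks (44.2%, 41.8 to 46.6) and for 750 of the control siRNA peaks (56.8%, 54.1 to 59.5). Peaks elsewhere at least 5 kb from protein-coding genes were shared in 44.4% in the CHAF1A siRNA list and 58.4% in the control siRNA list, and all peaks in 47.5% in the CHAF1A siRNA list and 61.9% in the control siRNA list. Sharing followed strength. In the CHAF1A siRNA list 12.4% of LINC peaks with −log10 q under 5 were shared, and all 55 with 50 or more. In the control siRNA list 28.6% of the weakest were shared and 100 of the 102 strongest. Between a −log10 q of 10 and 20, 203 of 332 control LINC peaks were shared (61.1%, 55.7 to 66.4), against 71.0% of all control peaks of that strength. In the CHAF1A siRNA list 248 of 351 LINC peaks of this class were shared (70.7%, 65.6 to 75.4), an interval that holds the 67.0% of all peaks. Other peaks of this class at least 5 kb from protein-coding genes were shared in 65.7% in the CHAF1A siRNA list and 67.9% in the control siRNA list.

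**Figure D4:**
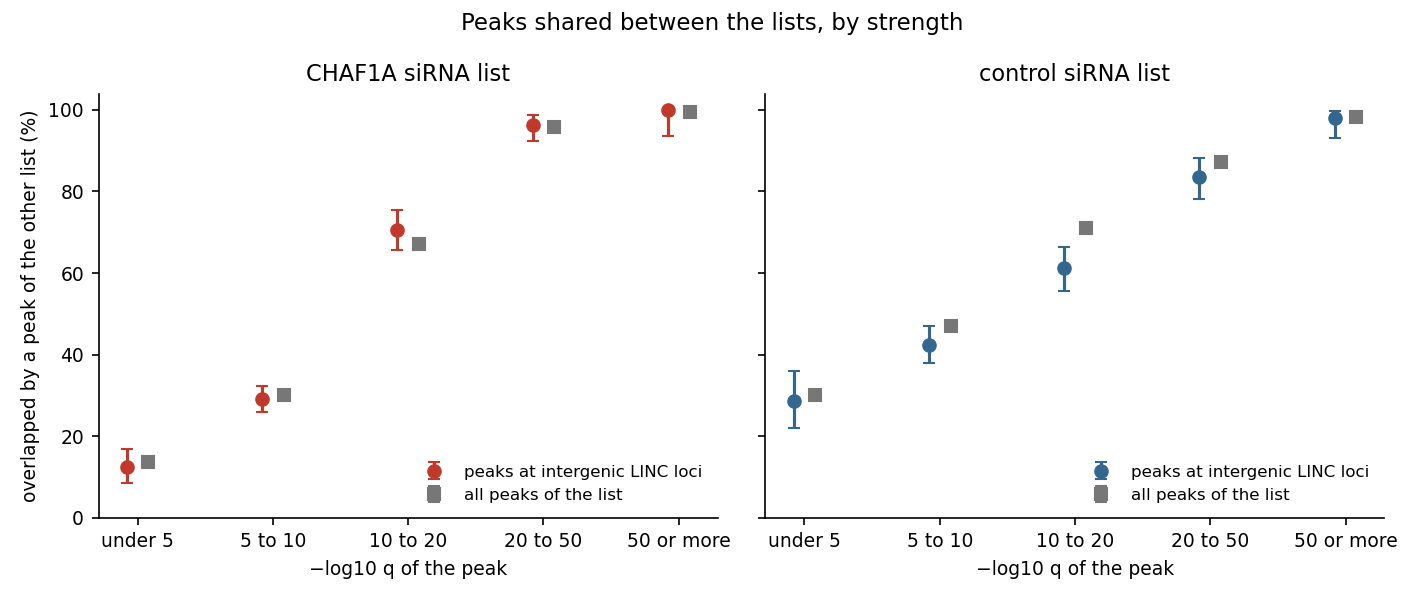
Share of peaks overlapped by a peak of the other list (vertical axis, percent) by the −log10 q of the peak (horizontal axis), for peaks at intergenic LINC loci (circles) and all peaks (squares), in the CHAF1A siRNA list (left) and the control siRNA list (right). Bars are 95% exact binomial intervals; LINC peaks go from 12.4% to 100% on the left and from 28.6% to 98.04% on the right.

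Overlapping peaks of the 2 lists were paired, and the pileup at each summit was divided by the most frequent background of its list. The 730 pairs at LINC loci had a median of 5.89 times background in the CHAF1A siRNA list and 7.57 in the control siRNA list. The value was lower in the CHAF1A siRNA list in 585 pairs and higher in 145, with a median log2 ratio of −0.33 (5th to 95th percentile −1.20 to 0.29). Over all 45581 shared pairs the median was −0.20, and over 15464 other pairs at least 5 kb from protein-coding genes −0.22. Among pairs with a control −log10 q of at least 20 the medians were −0.65 for 293 LINC pairs, −0.42 for all pairs and −0.44 for the other distant pairs. In that class 75 LINC pairs (25.6%) were more than 2-fold lower in the CHAF1A siRNA list on this scale, against 11.5% of all pairs and 16.0% of the other distant pairs. The choice of pairs by the strength of the control peak lowers such ratios in each of these groups.

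The sign of this difference rests on the scaling. With the reads as they stand, LINC pairs were lower in the CHAF1A siRNA list in 302 and higher in 409, with a median log2 ratio of 0.09, beside 0.22 for all pairs. With the authors' fold enrichment they were lower in 578 and higher in 152, with a median of −0.23, beside −0.18 for all pairs. Relative to the median of all shared pairs, LINC pairs stood at −0.13 with reads, which a scaling by 1 constant per list cannot change, and at −0.06 with fold enrichment. The 293 LINC pairs with strong control peaks were chosen by the control list alone, which lowers their ratios. Of these, 198 were lower in the CHAF1A siRNA list in reads and 93 higher, beside 8626 lower and 8716 higher of all strong pairs. More than 2-fold lower were 21 (7.17%), beside 2.48% of all strong pairs and 3.89% of the other distant strong pairs. With fold enrichment 23 of the 293 (7.85%) were more than 2-fold lower. This stood beside 2.83% of all strong pairs and 4.13% of the other distant strong pairs. More than 2-fold higher in the CHAF1A siRNA list were 5 of the 730 LINC pairs in reads, and none with reads over background or with fold enrichment. At the 404 loci whose strongest peaks overlap, reads over background were lower in the CHAF1A siRNA list in 344 and higher in 60, reads lower in 188 and higher in 210, and fold enrichment lower in 339 and higher in 65. No replicate gives the spread of these values, and the lists differ in background.

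The pairs with the largest differences, among those with −log10 q of at least 20 in either list, were named after their values were seen. LINC03126 on chromosome 1 had 63 reads and a fold enrichment of 3.53 in the CHAF1A siRNA list against 194 reads and 7.63 in the control siRNA list. LINC01132, on the same chromosome, had 76 reads and 3.42 in the CHAF1A siRNA list against 220 reads and 7.52 in the control siRNA list. LINC01214 on chromosome 3 had 26 reads and 2.85 in the CHAF1A siRNA list against 70 reads and 8.04 in the control siRNA list. In the other direction, LINC01409 near the start of chromosome 1 had 86 reads and 7.55 in the CHAF1A siRNA list against 36 reads and 4.44 in the control siRNA list. LINC02811 had 121 reads and 4.80 in the CHAF1A siRNA list against 51 reads and 3.19 in the control siRNA list.

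**Figure D5:**
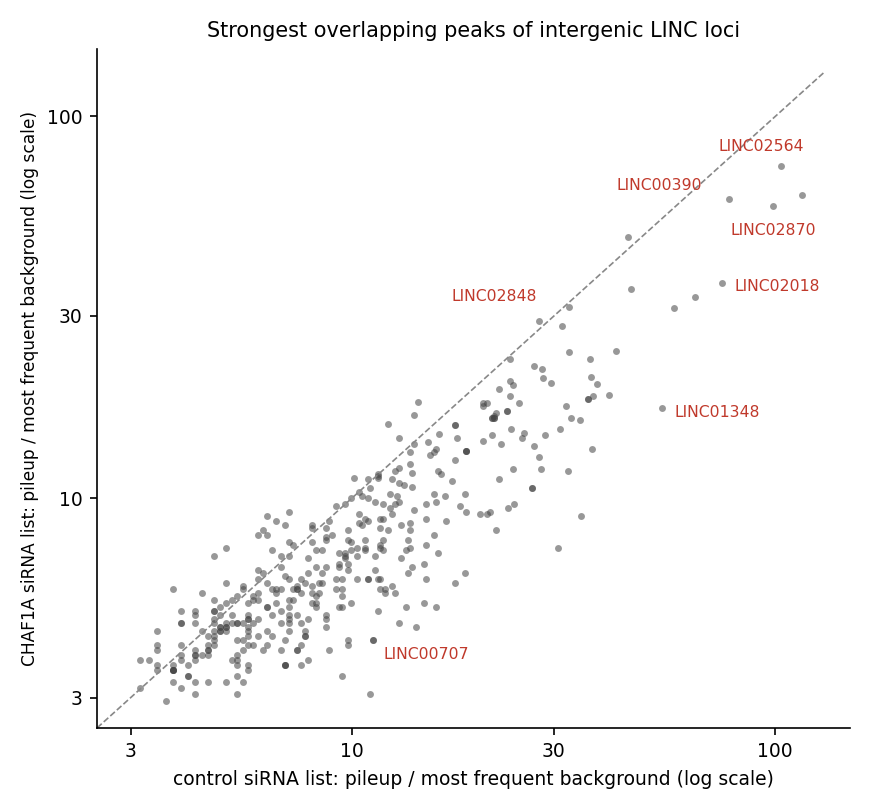
Pileup over the most frequent background at the strongest peak of 404 intergenic LINC loci whose strongest peaks overlap, in the control siRNA list (horizontal axis, log scale) and the CHAF1A siRNA list (vertical axis, log scale), with a dashed line of equal values. Of these loci, 344 lie below the line and 60 above it on this scale, whereas in reads as they stand 188 were lower and 210 higher in the CHAF1A siRNA list; LINC01348 lies far below it, at 17.2 in the CHAF1A siRNA list and 54.1 in the control siRNA list.

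Of 21 LINC genes described in cancers, 12 met the rule, 8 had a peak in the CHAF1A siRNA list and 7 in the control siRNA list, beside 44.2% and 37.3% of all intergenic LINC loci in the same lists. LINC00662, studied as a tumour-promoting RNA, had its peak at the start, which also lies in LINC02987. The peak had 138 reads and a fold enrichment of 8.44 in the CHAF1A siRNA list and 136 reads and 8.77 in the control siRNA list. LINC00707 had its strongest peak past the gene boundary, in LINC00706, with 36 reads in the CHAF1A siRNA list against 71 reads in the control siRNA list. LINC00467, whose strongest peak lies in a pair of other lncRNA genes, had 4 peaks in the CHAF1A siRNA list and 1 in the control siRNA list, the strongest with a fold enrichment of 3.71 in the CHAF1A siRNA list and 4.55 in the control siRNA list. LINC00460 had weak peaks in both lists, with 2.65 in the CHAF1A siRNA list and 3.11 in the control siRNA list. At LINC01234 the strongest peaks of the lists, with 3.74 in the CHAF1A siRNA list and 3.05 in the control siRNA list, did not overlap. LINC01503, driven by a super-enhancer in squamous cell carcinoma, had 2 peaks in the CHAF1A siRNA list only, the strongest with 91 reads and 2.69. LINC01139, also called LINK-A, had 1 weak peak there (3.37), and LINC00668 had 1 at its start in the control siRNA list only (3.95). LINC00958, LINC01116 and LINC01061 had none in either list.

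Loci known from other tissues were few, and their counts stand beside the 50.2% of all intergenic LINC loci with a peak in either list. Of 5 liver-enriched LINC genes, 2 had a peak, each in both lists. LINC01348 (chromosome 1, 235065474 to 235069818) had 146 reads and a fold enrichment of 4.73 in the CHAF1A siRNA list against 343 reads and 7.74 in the control siRNA list. LINC01554 had 62 reads and 4.35 in the CHAF1A siRNA list against 85 reads and 6.53 in the control siRNA list. LINC01018, LINC00844 and LINC01093 had none. Of 10 genes known from lymphocytes, LINC01215 had a peak in both lists, at different sites. LINC00861 had 1 weak peak in the CHAF1A siRNA list only, with a fold enrichment of 2.85, and LINC00926 had 2 there, the stronger with 3.48. The other 7 had none. Of 3 genes known from neural or pluripotent cells, LINC00458 and LINC01108 had a weak peak in the control siRNA list only, with 3.36 and 3.27.

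By chromosome, the share of LINC loci with a peak varied widely. Among chromosomes with at least 50 loci it was highest on chromosome 7, with 33 of 53 in each list and 29 in both. The lowest share in the CHAF1A siRNA list was on chromosome 4, with 36 of 129. In the control siRNA list it was on chromosome 16, with 10 of 57. Chromosome 13 held 133 loci, with 157 peaks in the CHAF1A siRNA list and 111 in the control siRNA list, a ratio of 1.41 beside 1.31 for all peaks of the chromosome. On chromosome X the 33 loci had 31 peaks in the CHAF1A siRNA list and 17 in the control siRNA list, a ratio of 1.82 beside 1.65 for all its peaks, and 7 loci had a peak in the CHAF1A siRNA list only and none in the control siRNA list only. Copy number of the chromosomes in each sample was not analysed here.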

How the data were processed

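RBE cells were profiled by CUT&Tag of CHAF1A in 2 groups of 2 samples, and 1 peak list per group was analysed. The names si and NC, a partial match to the titles, placed each list in its group. Per the submitters' processing notes, MACS2 2.1.2, Bowtie2 2.2.5, deepTools 3.4.3 and fastp 0.20.1 were used and the build was hg38. The sources used here do not say whether samples were pooled or a control library was used. The authors give each peak a fold enrichment, a linear ratio of its pileup to background, and deposited its p-value and q-value as −log10. The deposited score is 10 times −log10 p and was not used. The lowest −log10 p was 5.00 in each list, so peaks were called at a p of 1e-05.

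Only chromosomes 1 to 22, X and Y entered, without 886 CHAF1A siRNA and 868 control siRNA peaks. Genes came from the RefSeq table of GRCh38.p14. Strand and promoter sequences came from the RefSeq promoter table of the same build, which held 1330 of the 1971 LINC genes. The fold of MACS2, taken as (pileup + 1)/(background + 1), and the Poisson tail p were solved together for the pileup at each summit. A whole number of reads, within 0.02, was found for 99.9% of the peaks of each list. The recovery and the overlaps were tested on simulated data, the overlaps against bedtools 2.31.1. The overlap that counts as shared was 1 bp.

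Named loci were the 8 strongest with a peak in both lists (by the lower of the 2 highest −log10 q), the 5 strongest of each list alone, the 3 with most peaks, and those of 4 gene lists that carry a peak. LINC02811, LINC01132, LINC03126, LINC01214 and LINC01409 were named outside this rule, after their values were seen. The members and lists were chosen with earlier results of these data known. Alternatives were stricter peak thresholds, equal numbers of peaks, other margins and distances and 50% reciprocal overlap, and 2 added after seeing the data, without peaks over other genes and without chromosome X. With a single list in each group, conditions were not tested against each other. Intervals are 95% exact binomial (Clopper-Pearson), for counting error alone. Software was scipy 1.17.1, pandas 2.3.3, numpy 2.4.6 and matplotlib 3.10.9 in Python 3.11.15.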

Additional observations from a re-analysis of the deposited data

How the results depend on the processing

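No paired analysis was possible because each group is held as 1 list that does not keep its 2 samples apart, and for the same reason no replicate could be left out. Of 65 recomputed values, 55 stayed near the main ones, by a factor of 1.5 for counts of loci and within the interval for shares. Each count was judged alone, so this tally does not show whether a difference between the lists held. With equal numbers of peaks, loci of the CHAF1A siRNA list only went from 255 to 187. Loci of the control siRNA list only went from 119 to 172, and both counts passed as near. With peaks of −log10 q of at least 10, 423 loci had a peak in the CHAF1A siRNA list and 466 in the control siRNA list, 329 in both and 94 in the CHAF1A siRNA list only, against 871, 735, 616 and 255 with all peaks. Stricter lists raised the share of CHAF1A siRNA peaks at LINC loci that were shared, to 47.0% at a −log10 q of at least 5 and 68.0% at 10, against 44.2%. With equal numbers of peaks the shares were 53.2% of CHAF1A siRNA peaks and 52.0% of control siRNA peaks. With 50% reciprocal overlap they were 31.9% of CHAF1A siRNA peaks and 40.5% of control siRNA peaks. Leaving out peaks over other annotated genes, or chromosome X, both chosen after seeing the data, gave 770 and 854 loci in the CHAF1A siRNA list and 649 and 725 in the control siRNA list. Read depth is not known, and sites just under the threshold of either list are not seen.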
